A study of Mus musculus with 31 samples.

Results

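The pyruvate dehydrogenase kinases Pdk1, Pdk2, Pdk3 and Pdk4, the phosphatases Pdp1 and Pdp2, and the subunits Pdha1, Pdhb and Pdhx were followed through the livers of 31 mouse pups. The 9 genes were taken by their symbols from a table of 43629 genes, and all 9 were among the 17057 genes that passed the filter on low counts. The pups were C57Bl/6J, and livers were taken at postnatal day 14 after injections every other day from postnatal day 2. All 5 groups lacked both the type 1 and the type 2 deiodinase (Dio1KO/Dio2KO), the enzymes that turn the prohormone thyroxine (T4) into the receptor ligand triiodothyronine (T3). The control group (n = 5) was Dio1KO/Dio2KO/Pax8Het, had a thyroid and received vehicle. The other groups were Dio1KO/Dio2KO/Pax8KO littermates, which have no thyroid, and were given vehicle (n = 5), T4 (n = 8), T3 (n = 6) or both hormones (T3+T4, n = 7). No group was wild type for the deiodinases, and hormone doses are not given in the sources used here. Below, "vehicle" means the Pax8-null pups given vehicle. The comparisons ask how the hormone's loss, and each hormone given back where T4 cannot be converted by these enzymes, goes with the level of each transcript.

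Pyruvate dehydrogenase sits in the mitochondrial matrix and converts pyruvate to acetyl-CoA, the step that commits carbohydrate carbon to oxidation or fat synthesis. Its first component is built from Pdha1 (E1 alpha, X-linked) and Pdhb (E1 beta), and Pdhx anchors the dihydrolipoamide dehydrogenase component to the core. Pyruvate dehydrogenase kinases switch the complex off by phosphorylating serines of E1 alpha, and the phosphatases Pdp1 and Pdp2 switch it back on. Among the kinases, Pdk2 is the widely expressed form, Pdk4 is the form known for its rise in fasting, Pdk1 is a target of the hypoxia response and Pdk3 is best known from testis. Pdp1 is the calcium-sensitive phosphatase, abundant in muscle, and Pdp2 is the form known from liver and adipose tissue. All these enzymes act on protein, and the counts here measure transcripts alone.

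Called changes are reported below for Pdp1, Pdp2 and Pdhb, and none for Pdk4, the fasting-responsive kinase. Pdp1 had no upstream window. The upstream bases of Pdp2, Pdhb and Pdk4 are shown. They come from RefSeq starts on GRCm38.p6, the assembly that the mm10 of the deposited column names also denotes, and run 5′ to 3′ on the gene's strand. Capitals mark CCAAT or its reverse complement ATTGG. Bases that GENCODE M21 places inside the gene were left out, so 229, 217 and 219 bases are printed for Pdp2 (chr8:104591222-104591450, plus strand), Pdhb (chr14:8173026-8173242, minus strand) and Pdk4 (chr6:5496310-5496528, minus strand).
Pdp2: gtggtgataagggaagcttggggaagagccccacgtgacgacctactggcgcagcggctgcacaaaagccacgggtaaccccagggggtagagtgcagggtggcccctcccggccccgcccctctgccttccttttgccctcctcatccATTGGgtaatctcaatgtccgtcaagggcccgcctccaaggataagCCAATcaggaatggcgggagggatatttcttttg
Pdhb: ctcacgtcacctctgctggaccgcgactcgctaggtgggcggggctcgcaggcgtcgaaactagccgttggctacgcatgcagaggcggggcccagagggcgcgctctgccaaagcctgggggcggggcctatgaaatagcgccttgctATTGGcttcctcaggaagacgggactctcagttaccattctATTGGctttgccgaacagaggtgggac
Pdk4: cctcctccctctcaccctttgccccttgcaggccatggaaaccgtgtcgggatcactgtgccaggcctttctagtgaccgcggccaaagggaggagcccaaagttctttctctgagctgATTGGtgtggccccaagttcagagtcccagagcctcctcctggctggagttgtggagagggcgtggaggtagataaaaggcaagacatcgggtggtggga
Windows of 250 bases before the RefSeq start existed for 8 of the 9 genes (10 windows), with none for Pdp1. CCAAT, searched on both strands, was in 5 of the 8 genes. By window it was in 5 of the 10, against 33.8% of all 32851 such windows. Pdp2 held it 101 and 55 bases before its start, Pdhb 101, 60 and 12 bases before (the last lies in the bases not printed), and Pdk4 131 bases before. At least 2 copies were in 10.1% of all windows and at least 3 in 2.79%. AGGTCA, the hexamer bound by thyroid hormone receptors and many other nuclear receptors, was in none of the 10 windows on either strand, against 14% of all windows. CACGTG, its own reverse complement, was in 2 of the 8 genes, Pdp2 and Pdk2. By window it was in 2 of the 10, against 6.02% of all windows, and TATAAA was in none, against 12.4%. These motifs do not overlap one another in the windows of the 3 genes shown. A match is a run of letters and not a bound site, and no match says only that these letters are not in this window.

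Library totals ran from 4383769 to 7158919 counts, and the T3 and T3+T4 libraries tended to be larger, with medians of 6145940 and 6424330 against 5340700 in control, 5322020 in vehicle and 5298960 in T4 livers. Hepatocyte markers (8 of 8 genes counted in every group) summed to between 4505 and 7096 CPM in each library, and 2 of 8 tested were lower in T3 and 4 of 8 in T3+T4 than in vehicle. CPM are counts scaled to the library's total over the genes tested, with the TMM scaling described below. For the marker sums, 1 was first subtracted from each count. Skeletal muscle markers summed to at most 2.20 CPM in control and 8.91 in vehicle livers, but reached 260.5 in T4, 453.8 in T3 and 92.2 in T3+T4 livers, and 6 of 7 tested rose in T3 against vehicle. Of the muscle list, Ckm and Myh4 had no read in control and Myh4 and Pvalb none in vehicle livers. Pancreatic acinar markers reached 217 CPM in 1 vehicle liver, 6 of 7 tested were lower in T3 than in vehicle and 7 of 7 were higher in T3+T4 than in T4. Adipocyte markers reached 109.6 CPM in T4 livers, and the 1 tested was higher in vehicle and in T4 than in control. Stellate markers summed to 858 to 1056 CPM in vehicle, below the 1140 to 1217 of control livers, and 2 of 6 tested were lower there. T4 (891 to 1139), T3 (749 to 1117) and T3+T4 livers (951 to 1083) also lay below every control liver. Of the 6 tested, 1, 0 and 0 were lower in these groups than in control. Of 20 libraries with a labelled sex, 4 went against Xist and the Y-linked genes: vehicle animal 67, T4 animal 54, T3 animal 68 and T3+T4 animal 79. Dio1 and Dio2 counts do not check the deletions, because the exons removed are not given: Dio1 stood at 776 to 1035 counts in the controls. Pax8 stood at 2 to 28 counts in every library, of which 1 was added to all values, too few to check its genotype.

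The phosphatase Pdp2 had the clearest pattern of the 9 genes. Its transcript fell 2.28-fold where the thyroid was missing, was near the control level with T3 or T3+T4, and did not pass the test with T4 alone. In CPM after TMM scaling (edgeR's trimmed mean of M-values), the 5 control livers held 69.0, 71.6, 82.5, 95.8 and 96.2, and the 5 vehicle livers 27.4, 31.1, 33.8, 34.4 and 55.1. Every vehicle liver was below every control liver, although vehicle animal 67 stood apart from the other 4. Pdp2 was 83.0 ± 12.9 CPM in control (SD, n = 5) and 36.3 ± 10.8 in vehicle (SD, n = 5), a log2 fold change of -1.19 ± 0.20 (SE, edgeR adjusted p = 0.000259). It was the 1 member called of 9 in vehicle against control, a comparison in which 9.63% of all genes tested were called. Animal numbers run with the groups: 4 of 5 controls are numbered 42 to 50, and all T3 and T3+T4 pups 60 to 85. Among animals 54 to 85 only, with 1 control and 2 vehicle livers, 1 of them animal 67, the log2 fold change was -0.64 (adjusted p = 0.74).

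T3 livers held Pdp2 at 59.0 CPM at the lowest, 78.2 at the median and 116 at the highest, and T3+T4 livers at 69.9, 86.8 and 127. None of these 13 livers reached down to the highest vehicle liver. Against vehicle, Pdp2 rose by a log2 fold change of 1.19 ± 0.19 with T3 (adjusted p = 0.000293) and of 1.34 ± 0.18 with T3+T4 (adjusted p = 1.46e-05). With T4 alone the livers ran from 38.1 CPM through a median of 48.7 to 57.0, and 1 vehicle liver lay within that range. The log2 fold change of T4 against vehicle was 0.40 ± 0.18 (95% interval 0.03 to 0.76, adjusted p = 0.351), and among animals 54 to 85 only it was -0.06 (adjusted p = 0.976). Vehicle and T4 livers were therefore neighbours in the order of levels that did not differ at the threshold.

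In the direct comparisons T4 livers were below the T3-treated ones. Pdp2 was 1.74-fold lower in T4 than in T3 livers (log2 -0.80 ± 0.16, adjusted p = 0.0142) and 1.93-fold higher in T3+T4 than in T4 livers (log2 0.95 ± 0.16, adjusted p = 0.000268), in both cases with no overlap between groups. The call of T4 against T3 stood in 39 of 45 other settings and was lost without T3 animal 61 (adjusted p = 0.0644) or 68 (adjusted p = 0.0581), with the library total covariate (adjusted p = 0.128), with the sex covariate (adjusted p = 0.0978), with the compared groups only (adjusted p = 0.0862) and without the libraries high in muscle or acinar genes (adjusted p = 0.369). T4 livers also stayed below control livers (log2 -0.79 ± 0.17, adjusted p = 0.009), again without overlap. T3 livers and controls had nearly equal means, with a log2 difference of 0.003 (95% interval -0.36 to 0.37), and T3+T4 livers differed from controls by 0.15 (95% interval -0.20 to 0.51). The order of mean levels was thus T3+T4 at 92.2 ± 20.5 CPM (SD, n = 7), T3 at 83.1 ± 22.3 (SD, n = 6) and control, which did not differ from each other at the threshold, then T4 at 47.8 ± 8.38 (SD, n = 8) and vehicle.

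The other phosphatase, Pdp1, rose with T3 and with T3+T4 and was more scattered. Control livers held 23.5, 38.5, 43.4, 48.8 and 57.4 CPM, and vehicle livers 17.8, 22.7, 23.8, 26.5 and 27.7. Control animal 42 lay inside the vehicle range, and the log2 fold change of -0.83 ± 0.28 did not pass the test (adjusted p = 0.0556). T3 livers ran from 29.0 through a median of 57.0 to 118 CPM and T3+T4 livers from 33.5 through 48.2 to 57.2, all above every vehicle liver. Pdp1 rose 2.52-fold with T3 (log2 1.33 ± 0.27, adjusted p = 0.00343) and 1.95-fold with T3+T4 (log2 0.96 ± 0.26, adjusted p = 0.0121). T4 livers, at 17.3, 32.3 and 38.1 CPM for the lowest, median and highest, spanned the whole vehicle range (log2 0.37 ± 0.26, 95% interval -0.16 to 0.90, adjusted p = 0.592).

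Pdp1 was 1.95-fold lower in T4 than in T3 livers (log2 -0.96 ± 0.23, adjusted p = 0.0482), with groups that overlapped. The call stood in 5 of the 31 fits that each left out 1 library. Without T3 animal 68, the liver at 118 CPM, the log2 fold change was -0.65 (adjusted p = 0.185). Animal 68 is also among the 4 libraries whose sex label goes against its genes. Between T3+T4 and T4, and between T3+T4 and T3, Pdp1 differed by log2 0.59 ± 0.22 (adjusted p = 0.0973) and -0.37 ± 0.23 (adjusted p = 0.513).

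Pdp1 and Pdp2 made up the 2 members higher in T3 against vehicle, where 6.77% of genes tested were called, and the 2 lower in T4 against T3, where 0.551% were called. In T3+T4 against vehicle, with 15.8% called, the 3 members called, all higher, were Pdp1, Pdp2 and Pdhb. The background was 8.61% in T3+T4 against T4 and 3.54% in T4 against control, and in each Pdp2 was the only member called. T4 against vehicle called 0.41% of all genes and no member by edgeR, and 1 member, Pdp2, had an unadjusted p under 0.05. Members called were 0 in T3+T4 against T3 (0.0117% of genes called), in T3 against control (0.211%) and in T3+T4 against control (0%), where 1, 1 and 0 members had an unadjusted p under 0.05. Over all genes, T3+T4 against control had 1226 at an unadjusted p under 0.05 and 50 called by DESeq2, and DESeq2 called no member in these comparisons. Whether T3 and T4 acted together other than by addition of log2 changes was asked with an interaction term, which called 0.135% of genes and no member, with 2 of 9, Pdk3 and Pdp1, at an unadjusted p under 0.05. Across the 9 members the median log2 fold change was -0.11 in vehicle against control, 0.26 in T3 and 0.19 in T3+T4 against vehicle, beside medians of 0.01, -0.0009 and -0.003 over all genes tested.

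**Figure D1:**
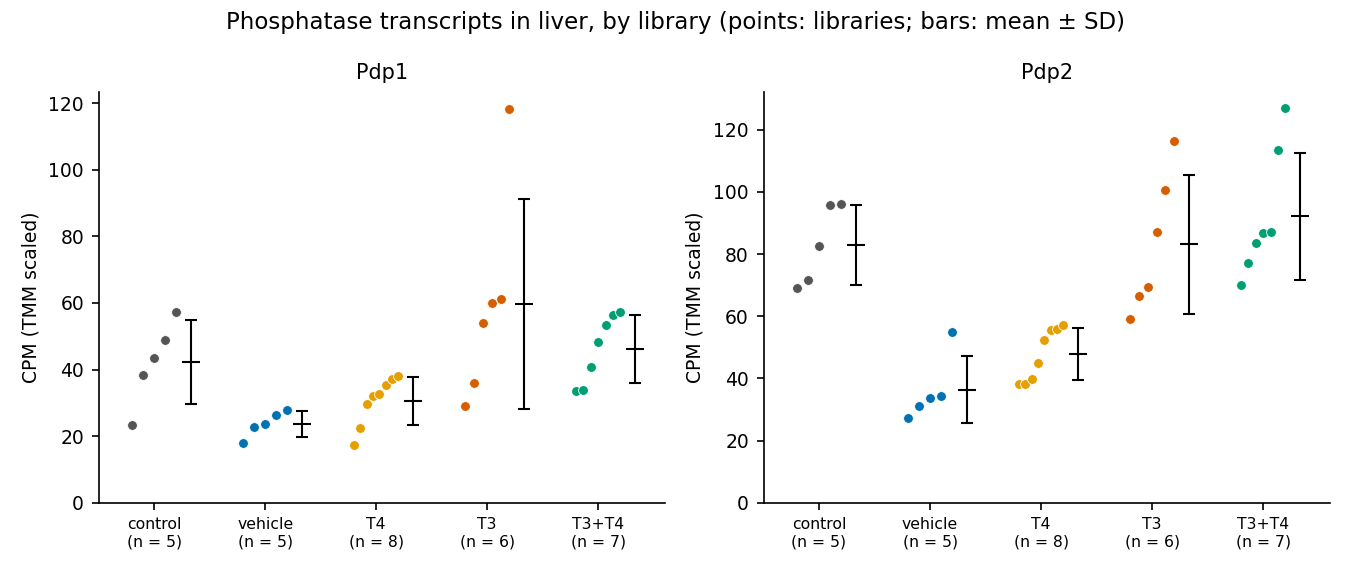
Pdp1 (left) and Pdp2 (right) in TMM-scaled CPM by group, with 1 point per library and the mean ± SD as bars. For Pdp2 the vehicle livers (27.4 to 55.1) and the T4 livers (38.1 to 57.0) lie below all control, T3 and T3+T4 livers, and for Pdp1 a T3 liver at 118 stands above the rest.

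**Figure D2:**
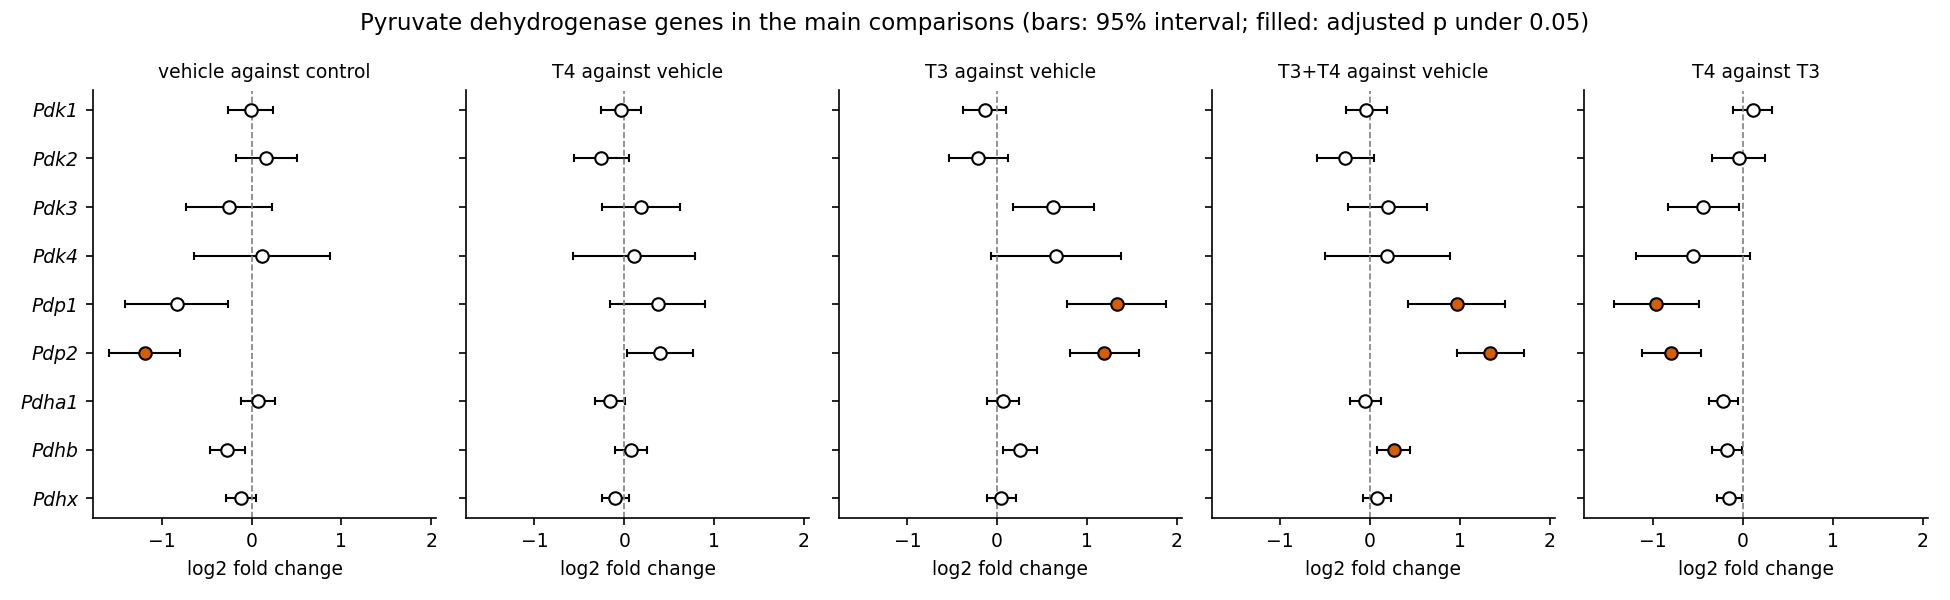
Log2 fold change of each gene in the 5 main comparisons, with 95% intervals as bars. Filled points have an edgeR adjusted p under 0.05: Pdp2 in 4 panels, Pdp1 in 3 and Pdhb in 1.

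The phosphatase results are given here without the 4 libraries whose sex labels went against their genes. Pdp2 kept its calls, at log2 -1.39 in vehicle against control (adjusted p = 6.84e-05), 1.33 in T3 against vehicle (adjusted p = 0.000249), 1.49 in T3+T4 against vehicle (adjusted p = 1.43e-05) and -0.76 in T4 against T3 (adjusted p = 0.0434). Pdp1 stayed higher in T3 (log2 1.02, adjusted p = 0.0264) and in T3+T4 (log2 0.95, adjusted p = 0.0145) than in vehicle, and lost its call in T4 against T3 (log2 -0.68, adjusted p = 0.183). With sex scored from Xist and 4 Y-linked genes as a covariate, Pdp2 in T4 against T3 stood at log2 -0.85 (adjusted p = 0.0978). By these genes 4 of 5 control, 2 of 5 vehicle, 2 of 8 T4, 5 of 6 T3 and 2 of 7 T3+T4 livers were female.

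Markers of other tissues moved with some of these groups. When the mean levels of the muscle and acinar lists entered the fit as covariates, Pdp1 in T3 against vehicle was 1.54 (adjusted p = 0.00878) and Pdp2 was 1.20 (adjusted p = 0.0036) on the log2 scale. T3 animal 68, the highest for Pdp1, had the lowest muscle sum of the T3 livers, 4.30 CPM. In the other T3 livers Pdp1 and the muscle sum had the same order, animals 62, 61, 65, 60 and 64. Pdp1 ran there from 29.0 to 61.3 CPM and the muscle sum from 7.16 to 453.8 CPM. Why animal 68 stood outside this order was not tested. Leaving out the 12 libraries high in muscle or acinar genes left 3 vehicle and 4 T3 livers, with a similar log2 fold change of 1.39 for Pdp1 (adjusted p = 0.155) and of 1.09 for Pdp2 (adjusted p = 0.0774), neither past the threshold. Pdp2 in T3+T4 against vehicle was then 1.23 and still called (adjusted p = 0.0239). With log2 library total as a covariate, Pdp1 in T3+T4 against vehicle moved from 0.96 to 0.59 (adjusted p = 0.221), and since totals differ by group, depth and hormone cannot be fully told apart there. In bulk liver, fewer cells of a type and less RNA per cell cannot be told apart either.

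None of the 4 kinases was called in any of the 11 comparisons, by edgeR or by DESeq2. At an unadjusted p under 0.05 stood Pdk3 in 4 of the comparisons and Pdk4 in 1. Per kilobase of exon in control livers, Pdk2 was at 39.2 ± 11.8 CPM, Pdk4 at 33.7 ± 15.1, Pdk1 at 23.2 ± 2.56 and Pdk3 at 3.08 ± 0.86 (SD, n = 5 each). As a share of the 4 kinases per kilobase in control, Pdk2 gave 39.6%, Pdk4 33.5%, Pdk1 23.7% and Pdk3 3.26%. Pdk1 was the steadiest, with group means between 162.8 CPM in T3 and 180.6 CPM in control and log2 fold changes against vehicle between -0.14 and -0.03. Its 95% interval in vehicle against control ran from -0.26 to 0.24 on the log2 scale.

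Pdk4 had the highest coefficient of variation of the 9 genes in control, T4 and T3+T4 livers. Control livers held 54.9, 73.6, 125, 167 and 172 CPM, and vehicle livers 93.8, 118, 122, 144 and 163, so the controls alone spread over a wider range than the vehicle group. T3 livers, at 152, 203 and 250 CPM for the lowest, median and highest, were the highest group on average, while T3+T4 livers ran from 71.7 through 87.3 to 307 CPM. That coefficient was 44.9% in control, 20.6% in vehicle, 42.3% in T4, 21.2% in T3 and 65.4% in T3+T4 livers. The log2 fold change of T3 against vehicle was 0.66 ± 0.35 (95% interval -0.07 to 1.38, adjusted p = 0.282), and that of vehicle against control was 0.11 ± 0.37. The 2 T4 livers highest in Pdk4 were animals 46 at 255 CPM and 43 at 193 CPM. These 2 also had the highest adipocyte sums of all libraries (94.3 and 109.6 CPM). In T3+T4 the liver highest in Pdk4, animal 78, had the highest acinar sum of its group (199 CPM). Other livers did not pair this way. Vehicle animal 37 had the highest acinar sum of all libraries, 217 CPM, with Pdk4 at 144 CPM. T3+T4 animal 85, with an acinar sum of 64.7 CPM, held the lowest Pdk4 of its group, 71.7 CPM. T3 animals 61 and 68, at 250 and 240 CPM of Pdk4, had adipocyte sums of 17.9 and 13.4 CPM. With the muscle and acinar covariates Pdk4 in T3 against vehicle was log2 1.08 (edgeR adjusted p = 0.14), and with the adipocyte covariate 0.65 (adjusted p = 0.299). Without the libraries high in muscle or acinar genes, T3+T4 against vehicle went from log2 0.19 to -0.60 (adjusted p = 0.423). None of these fits called Pdk4, and the part of the markers in the values of single livers was not tested.

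Pdk3 was counted at 26 to 75 per library, which limits its precision. Its T3 livers averaged 10.2 ± 2.40 CPM (SD, n = 6) against 6.63 ± 1.87 in vehicle (SD, n = 5), a log2 fold change of 0.62 ± 0.22 that did not pass the test (adjusted p = 0.0862). It passed without vehicle animal 67 (log2 0.78, adjusted p = 0.0416) or without T3 animal 62 (log2 0.75, adjusted p = 0.0267), the liver at 5.80 CPM. Pdk3 is X-linked, and by Xist and the Y-linked genes animal 62 was male, unlike the other T3 livers. Over all groups, livers male by these genes ran from 5.11 CPM (T3+T4 animal 72) to 10.2 CPM (T4 animal 58). Female livers ran from 4.74 CPM (vehicle animal 37) to 12.7 CPM (T3 animal 68). With the sex covariate Pdk3 in T3 against vehicle was not called (log2 0.61, edgeR adjusted p = 0.17). T4 and T3+T4 livers averaged 7.54 ± 1.94 (SD, n = 8) and 7.60 ± 1.70 CPM (SD, n = 7), close to the control mean of 7.90 ± 2.20 (SD, n = 5).

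Pdk2 stood at 139 ± 26.6 CPM in vehicle (SD, n = 5) and at 116 ± 20.8 (SD, n = 8), 120.2 ± 21.8 (SD, n = 6) and 115 ± 18.3 (SD, n = 7) in T4, T3 and T3+T4 livers. None of these differences passed the test, with log2 fold changes against vehicle of -0.26, -0.21 and -0.27 and adjusted p of 0.503, 0.478 and 0.234. The highest T4 liver, animal 40 at 164 CPM, was also the lowest T4 liver for Pdp1 at 17.3 CPM. Control animal 42 paired the highest Pdk2 of the controls, 185 CPM, with the lowest Pdp1, 23.5 CPM.

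**Figure D3:**
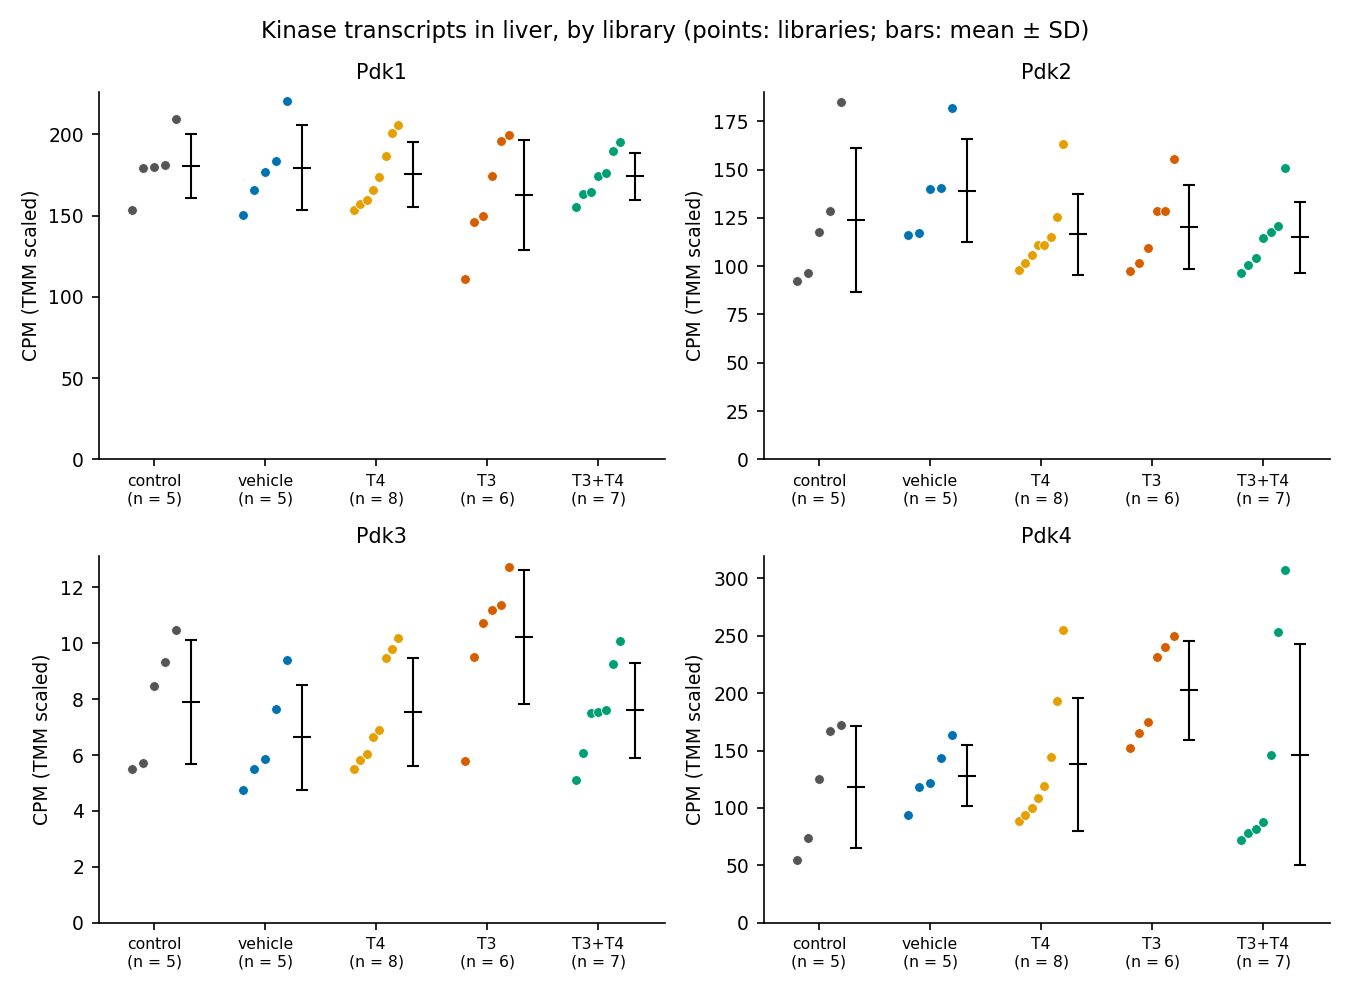
The 4 kinase transcripts in TMM-scaled CPM by group, 1 point per library with the mean ± SD as bars and a separate axis for each gene. All groups overlap for each kinase; Pdk4 spreads from 54.9 to 172 CPM within the controls and from 71.7 to 307 within T3+T4.

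Among the subunits, Pdhb changed slightly and Pdha1 and Pdhx were not called. Pdhb stood at 109, 116, 123, 126 and 126 CPM in control livers and at 78.6, 102, 102, 103 and 114 in vehicle livers, with vehicle animal 67 lowest and 1 vehicle liver inside the control range. It did not pass the test in vehicle against control (log2 -0.27 ± 0.10, adjusted p = 0.0757) or in T3 against vehicle (0.26 ± 0.09, adjusted p = 0.0944). T3+T4 livers, at 108, 125 and 126 CPM for the lowest, median and highest, were 1.20-fold above vehicle (log2 0.27 ± 0.09, adjusted p = 0.0419), with groups that overlapped. This call stood in 22 of the 31 fits that each left out 1 library, with log2 0.19 (adjusted p = 0.161) without vehicle animal 67, and without the 4 libraries of conflicting sex it was 0.18 (adjusted p = 0.216).

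Pdha1, the X-linked partner of Pdhb, had group means between 111.8 CPM in T4 and 129.9 CPM in T3, and its log2 fold change in vehicle against control was 0.07 ± 0.09 (95% interval -0.11 to 0.26). Map3k15, on the opposite strand, shares 16.1% of the exonic bases of Pdha1 and averaged 12.7 counts against 684 for Pdha1; the use of strand in counting is not stated. Per library, the ratio of Pdha1 to Pdhb per kilobase was 1.02 ± 0.09 in control (SD, n = 5) and 1.30 ± 0.15 in vehicle (SD, n = 5), with all vehicle values between 1.18 and 1.56 and all control values between 0.950 and 1.17. It was 1.10, 1.13 and 1.04 in T4, T3 and T3+T4 livers, given as a description with no test. Pdhx, which tethers the E3 component, ran from a mean of 58.9 ± 6.93 CPM in T4 (SD, n = 8) to 68.5 ± 4.45 in control (SD, n = 5). T4 against control gave its lowest log2 fold change, -0.22 ± 0.07 (adjusted p = 0.0892).

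**Figure D4:**
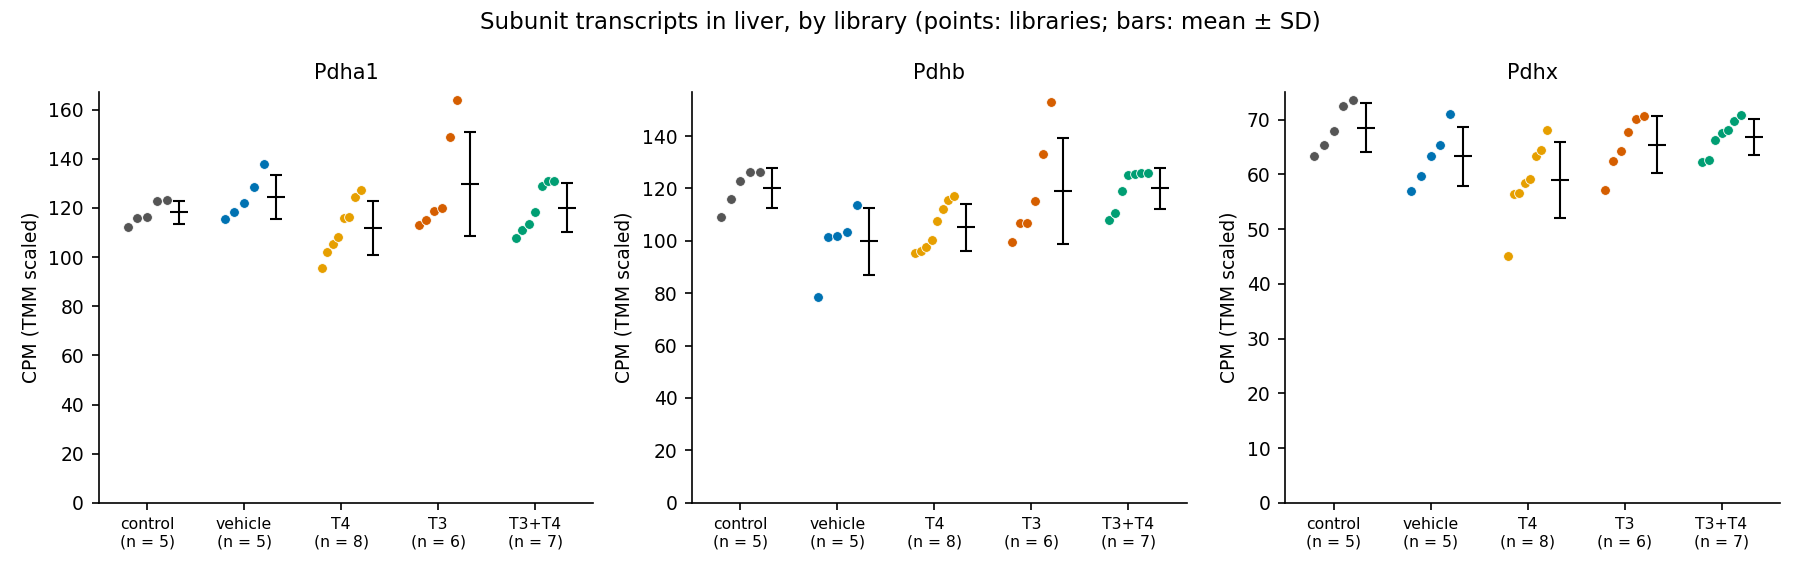
Pdha1, Pdhb and Pdhx in TMM-scaled CPM by group, 1 point per library with the mean ± SD as bars. The groups lie close together: Pdhb is lowest in vehicle at 99.8 CPM on average and 119 to 120.1 in control, T3 and T3+T4.

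Summed per kilobase, the kinases overlapped between all groups, and the phosphatases of vehicle livers lay below those of control livers without overlap. The 4 kinases together were 99.3 ± 14.3 CPM per kilobase in control (SD, n = 5) and 106.2 ± 7.97 in vehicle (SD, n = 5), while the 2 phosphatases were 24.0 ± 2.73 and 11.6 ± 1.91. The ratio of the sums was 4.23 ± 1.04 in control and 9.30 ± 1.58 in vehicle livers, and 6.72 ± 0.85 in T4 (SD, n = 8), 4.65 ± 1.38 in T3 (SD, n = 6) and 3.93 ± 0.98 in T3+T4 (SD, n = 7). Vehicle ratios ran from 7.27 to 11.5 and control ratios from 2.90 to 5.57, with no overlap, and T4 ratios from 5.41 to 7.97 lay between and met both ranges. This restates the phosphatase values above on another scale, so it was not tested. Within the phosphatases Pdp2 gave 61.1% in control, 54.3% in vehicle, 55.5% in T4, 54.0% in T3 and 61.0% in T3+T4 livers. A ratio of transcripts is not a ratio of enzyme activities.

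**Figure D5:**
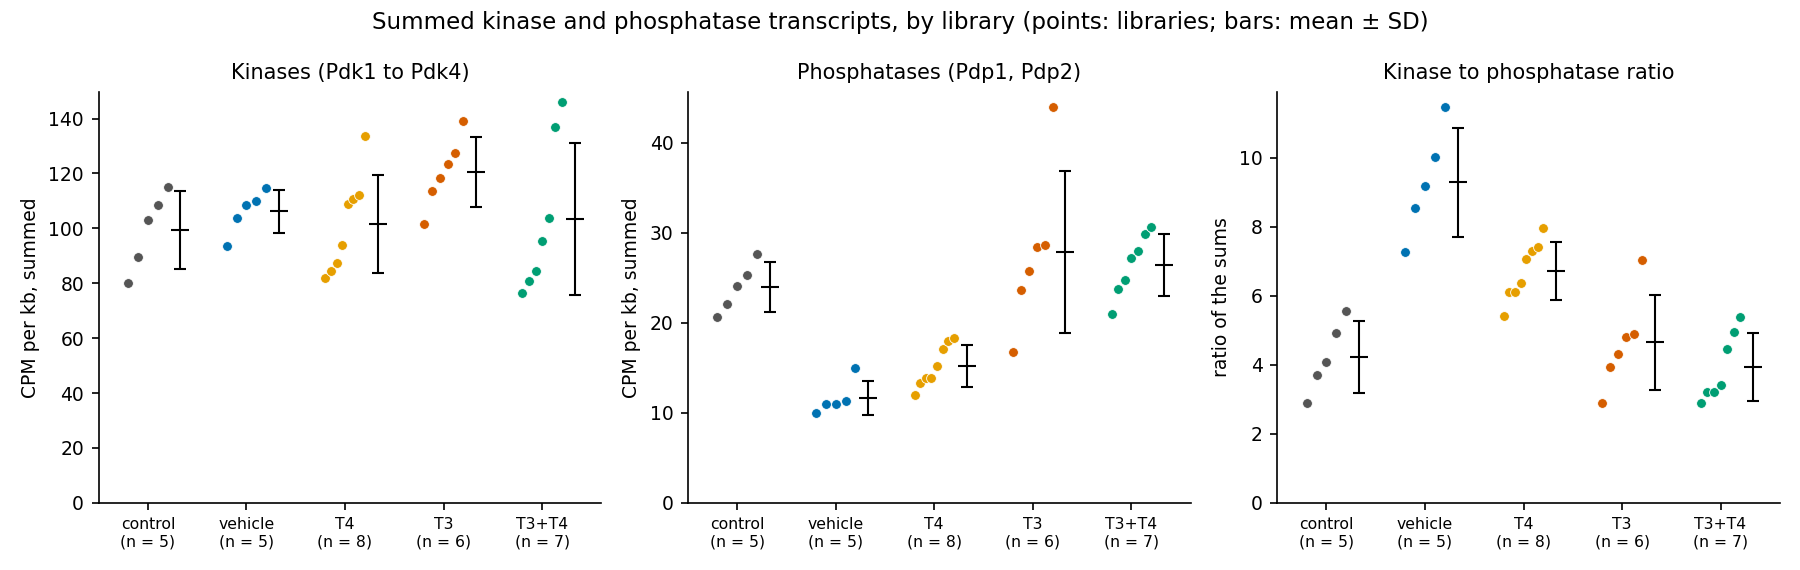
Summed CPM per kilobase of the 4 kinases (left) and of the 2 phosphatases (middle), and the ratio of the sums (right), by group with 1 point per library and the mean ± SD as bars. The ratio runs from 7.27 to 11.5 in vehicle livers and reaches at most 5.57 in control livers.

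The rest of the complex was nearly flat. Dlat (E2, the acetyltransferase core) and Dld (E3, the dihydrolipoamide dehydrogenase) were 94.4 ± 6.24 and 171.6 ± 6.03 CPM in control and 100.6 ± 8.17 and 181.3 ± 10.9 in vehicle (SD, n = 5 each), and neither was called by edgeR in any of the 11 comparisons, with 1 each at an unadjusted p under 0.05. Pdpr, the regulatory subunit that restrains the phosphatase, was 63.3 ± 9.33 CPM in control, 63.2 ± 7.97 in vehicle (SD, n = 5 each), 50.3 ± 7.35 in T4 (SD, n = 8), 63.2 ± 14.9 in T3 (SD, n = 6) and 61.2 ± 13.1 in T3+T4 livers (SD, n = 7), also never called, with 4 comparisons at an unadjusted p under 0.05. Mpc1, a subunit of the mitochondrial pyruvate carrier, was lower in T3+T4 than in vehicle (log2 -0.20 ± 0.07, adjusted p = 0.0373) and than in T4 livers (-0.22 ± 0.06, adjusted p = 0.0164). Its partner Mpc2 was called in none of the comparisons (2 at an unadjusted p under 0.05), with 135.6 ± 3.65 CPM in control and 128.3 ± 15.3 in vehicle (SD, n = 5 each).

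Other genes that use pyruvate or supply it moved in both directions. Of 14 tested, 2 were higher and 2 lower in vehicle against control, 1 higher and 3 lower in T3 against vehicle, and 2 higher and 5 lower in T3+T4 against vehicle. Over all genes tested, 9.63%, 6.77% and 15.8% were called in these comparisons. Me1, cytosolic malic enzyme, which makes pyruvate and NADPH, fell by 1.39 in vehicle against control (adjusted p = 0.023) and rose by 2.01 with T3 (adjusted p = 0.00199) and 2.03 with T3+T4 (adjusted p = 0.000456), all on the log2 scale. Slc16a7, a monocarboxylate transporter, went the other way, at 0.38 in vehicle against control (adjusted p = 0.00773), -0.34 with T4 (adjusted p = 0.0474), -0.46 with T3 (adjusted p = 0.00155) and -0.52 with T3+T4 (adjusted p = 8.85e-05). Pcx, pyruvate carboxylase, which sends pyruvate to oxaloacetate, was lower with T3+T4 than with vehicle (-0.40, adjusted p = 6.24e-05) and higher in T4 than in T3 livers (0.30, adjusted p = 0.012). The median over the list was -0.03, -0.11 and -0.09 in those first 3 comparisons, beside 0.01, -0.0009 and -0.003 over all genes.

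Of 19 tested genes of the tricarboxylic acid cycle, which takes up the acetyl-CoA, 1 was higher and 2 lower in vehicle against control, 2 and 2 in T3 against vehicle, and 2 and 4 in T3+T4 against vehicle. The shares called over all genes were 9.63%, 6.77% and 15.8%. Cs, citrate synthase, fell by 0.42 where the thyroid was missing (adjusted p = 0.00343) and rose by 0.40 with T3+T4 (adjusted p = 0.00194), the directions of Pdp2. Idh3a, a subunit of the NAD-linked isocitrate dehydrogenase, rose by 0.73 with T3 (adjusted p = 0.00833). Idh2, the mitochondrial NADP-linked form, was opposite, at 0.32 in vehicle against control (adjusted p = 0.0266), -0.43 with T3 (adjusted p = 0.00343) and -0.49 with T3+T4 (adjusted p = 0.000258).

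Among 9 tested genes of the sister dehydrogenase complexes, 2 were higher and 1 lower in vehicle against control. In T3 against vehicle 0 were higher and 2 lower, and in T3+T4 against vehicle 1 was higher and 3 lower. Beside these stand 9.63%, 6.77% and 15.8% of all genes called. Of these complexes, the branched-chain ketoacid complex has a like kinase and phosphatase switch. Ppm1k, the phosphatase of that switch, was 0.60 higher in vehicle than in control livers (adjusted p = 0.0239) and lower with T3 (-0.58, adjusted p = 0.0291) and T3+T4 (-0.76, adjusted p = 0.00137) than with vehicle, on the log2 scale. Its direction was thus opposite to that of Pdp2 in these comparisons. Bckdhb, the E1 beta subunit of that complex, was 0.20 higher in vehicle against control (adjusted p = 0.033) and lower with T3 (-0.24, adjusted p = 0.0125) and T3+T4 (-0.34, adjusted p = 0.000141). Dbt, its E2 core, was lower with T4 than with vehicle (-0.42, adjusted p = 0.0446), a comparison that called no pyruvate dehydrogenase gene.

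Of 14 tested genes for lipoic acid, thiamine and iron-sulfur clusters, 1 was called in vehicle against control, 1 in T3 and 2 in T3+T4 against vehicle, beside 9.63%, 6.77% and 15.8% of all genes. Lipt2, which attaches the first lipoyl precursor in mitochondria, rose by 0.39 with T3 (adjusted p = 0.0416) and 0.48 with T3+T4 (adjusted p = 0.0053). Nfu1, an iron-sulfur carrier for lipoate synthesis, was 0.23 higher in vehicle than in control (adjusted p = 0.0471), and Isca1, another iron-sulfur assembly factor, was lower with T3+T4 than with vehicle (log2 -0.20, adjusted p = 0.0328).

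Of 20 tested nuclear receptor genes and targets often regulated along with Pdk4, 1 was higher and 1 lower in vehicle against control, and 1 higher and 4 lower in T3+T4 against vehicle, beside 9.63% and 15.8% of all genes called in either direction. Cyp4a14, a fatty acid hydroxylase induced in fasting, was 0.60 higher in vehicle than in control livers (adjusted p = 0.01) and fell by 0.88 with T3+T4 (adjusted p = 6.5e-05). Nr3c1, the glucocorticoid receptor, was lower in vehicle than in control livers (-0.26, adjusted p = 0.0484).

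Of 13 tested genes of the thyroid hormone receptors and their known targets, which include Me1 and Idh3a from above, 1 was higher and 6 lower in vehicle against control, 1 higher in T4, 5 higher and 1 lower in T3, and 6 higher and 1 lower in T3+T4 against vehicle. In the same order, 9.63%, 0.41%, 6.77% and 15.8% of all genes were called. The log2 fold change of Dio1, a textbook target whose transcript is still counted in these deiodinase-null livers, was -3.74 in vehicle against control (adjusted p = 3.12e-08), 1.44 with T4 (adjusted p = 0.041), 3.41 with T3 (adjusted p = 1.9e-07) and 3.88 with T3+T4 (adjusted p = 6.77e-09). It was also lower in T4 than in T3 livers (log2 -1.97, adjusted p = 0.000241), the direction of both phosphatases there. Thra, the alpha receptor, was 0.37 higher in vehicle than in control livers (adjusted p = 0.00123) and lower with T3 (-0.37, adjusted p = 0.00149). Bcl3, a hormone-induced cofactor gene, was 1.18 higher with T3+T4 than with vehicle (adjusted p = 0.000324). The median over this list was -0.55 in vehicle against control and 0.54 in T3 against vehicle. The vehicle livers enter both of these, and the control or vehicle libraries are shared by most of the comparisons above.

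For each of the 3 called genes, the genes most alike across the 31 libraries were found by Pearson correlation of log2 CPM, as a description. Group differences and depth are shared by all points. Pdp2 was most like 4933404O12Rik (r = 0.93), Sned1 (r = 0.90) and Abhd6 (r = 0.88), a lipid hydrolase. Pdp1 was most like Rp1 (r = 0.84), Sort1 (r = 0.82), the sorting receptor sortilin, and Pi4k2b (r = 0.81). Pdhb was most like Hccs (r = 0.83), Coa5 (r = 0.82), both assembly factors for cytochromes of the respiratory chain, and Gbe1 (r = 0.81), the glycogen branching enzyme. By Spearman correlation 1 of the 3 genes stayed the same for Pdp2, 2 for Pdp1 and none for Pdhb.

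The 9 genes lie on 7 chromosomes of mm10 (GENCODE M21). Pdp2 (ENSMUSG00000048371) is at chr8:104591451-104599026 on the plus strand with 5692 exonic bases, and Pdp1 (ENSMUSG00000049225) at chr4:11958184-11966452 on the minus strand with 4507. Pdhb (ENSMUSG00000021748) is at chr14:8165996-8173025 on the minus strand. Pdk1 is on chromosome 2 (71873224 to 71903858), as is Pdhx (103021075 to 103073513), Pdk2 on 11 (95026258 to 95041354) and Pdk4 on 6 (5483351 to 5496309). Pdk3 (93764607 to 93832201) and Pdha1 (160122209 to 160138413) are on X. Apart from Map3k15 at Pdha1, no gene of that annotation shares exonic bases with the 9.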

How the data were processed

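Liver RNA of 31 pups was analysed from 1 deposited table of whole-number counts per gene. The column sums differ between libraries, which does not settle whether the authors had scaled the counts, since scaled counts can also differ in their sums. No value is under 1 in any column and 50.1% of values are 1, so 1 was added at an unstated step. The submitters' processing notes name bcl2fastq, Trimmomatic, BWA (0.7.10) and DESeq and give GRCh38, which is human, as the build, while the deposited column names give mm10. The counting tool, its use of strand, the annotation and duplicate removal are not given in the sources used here. Libraries were made with a stranded mRNA kit, per the labels' protocols. Every library carries its own animal number, read as separate animals.

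The counts as deposited were TMM-scaled and low counts removed with filterByExpr, which left 17057 genes. The quasi-likelihood test of edgeR 4.0.16 in R 4.3.3 was fitted with a mean for each group over 31 libraries and Benjamini-Hochberg adjustment over all genes at 0.05. There were 11 comparisons, each with log2 fold change, SE and 95% interval. Exonic lengths for CPM per kilobase came from GENCODE M21. Upstream bases came from RefSeq. The named genes were the 9 members, Dlat, Dld, Pdpr, Mpc1, Mpc2, Pax8, Dio1 and Dio2. From each pathway list up to 2 genes with the smallest adjusted p under 0.05 in each of the 5 main comparisons were named, and for each called member the 3 genes most correlated with it. Members and lists were chosen with earlier results of these data known. Alternatives changed the scaling, filter, tool (DESeq2 1.42.0), covariates and libraries. The test was checked on simulated data. A result for 1 gene of the pathway lists is not reported here.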

Additional observations from a re-analysis of the deposited data

Results flagged for a closer look

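Each gene was looked at in each of the 5 groups for a library far from the others of its group, 45 sets of values in all, and 3 stood out by Dixon's test at the 95% level. Chance alone flags about 1 in 20 such sets.

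Pdp2 in vehicle animal 67 was 55.05 CPM, while the next vehicle liver held 34.4. Without this library the log2 fold change of Pdp2 in vehicle against control was -1.39, against -1.19 with it. Pdp1 in T3 animal 68 was 118.3 CPM, and the next T3 liver held 61.3. Without it the log2 fold change of Pdp1 in T3 against vehicle was 1.03, against 1.33 with it, still called. Both animals are among the 4 whose labelled sex went against Xist and the Y-linked genes, and the part of that in these values was not tested. Pdk2 in T4 animal 40 was 163.5 CPM, with the next T4 liver at 126.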

How the results depend on the processing

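Every comparison was refitted under 45 other settings: 31 that each left out 1 library and 14 others, of which the adipocyte covariate was chosen after seeing the data. No called log2 fold change turned its sign. Pdp2 in T3+T4 against vehicle was called in all 45 (log2 1.05 to 1.54).

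The total of all 17057 genes called also moved with the setting. Vehicle against control called 1642 genes in the main fit, 1611 with library totals alone and 1886 by DESeq2. T3 against vehicle called 1155, 1209 and 1447 in that order, and T4 against T3 called 94, 87 and 234. Totals for the other settings are not given here, so member counts below are not set against them. The number of the 9 genes called moved as follows under settings that do not leave out single libraries. In vehicle against control (1 called) it was 2 with library totals alone, with the compared groups only and by DESeq2, and 0 with animals 54 to 85 only, which kept 1 control and 2 vehicle livers. In T3 against vehicle (2 called) it was 3 with library totals alone, 1 with the compared groups only and 0 with animals 54 to 85 or without the libraries high in muscle or acinar genes. In T3+T4 against vehicle (3 called) it was 2 with the adipocyte covariate and without the libraries of conflicting sex, and 1 with the library total covariate, with animals 54 to 85 and without the muscle or acinar libraries. In T4 against T3 (2 called) it was 1 with library totals alone, no filter, the adipocyte covariate, animals 54 to 85 or without the libraries of conflicting sex. It was 0 there with the compared groups only, the sex covariate, the library total covariate or without the muscle or acinar libraries. In T3+T4 against T4 (1 called) it was 3 with no filter, 2 with the compared groups only and 0 without the muscle or acinar libraries. In T4 against control (1 called) it was 0 with animals 54 to 85 and without the muscle or acinar libraries. The cause of these shifts was not tested. These last 2 settings also had fewer libraries, as few as 1 and 3 in a group. With animals 54 to 85 the estimate moved too: Pdp2 in vehicle against control went from log2 -1.19 to -0.64. With 1 library in a group, that library is assumed to vary like the others.

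Leaving out 1 library gave 1 to 3 genes in vehicle against control, 2 to 4 in T3 and 2 to 3 in T3+T4 against vehicle, 0 to 2 in T4 against T3, 1 to 2 in T3+T4 against T4 and 1 in T4 against control. The 5 other counts were 0 throughout. With 5 to 8 livers a group, small changes of Pdhb and of the lowly counted Pdk3 lie at the limit of this design. No paired analysis was possible because each animal number belongs to 1 animal and no number is shared between groups. The labels used here give no litter, so littermates were treated as independent in the fit.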

Other observations

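Within groups, some of the 9 genes moved together across livers. After each group's mean log2 CPM was removed, Pdha1 and Pdhb, the partners of the E1 component, correlated at r = 0.71 over the 31 libraries, and Pdhx correlated at 0.47 with each of them. Pdk2 and Pdp1 ran against each other (r = -0.69), as did Pdk2 and Pdk3 (r = -0.52), while Pdk3 and Pdp1 ran together (r = 0.56). The phosphatases had a correlation of 0.58 with group means left in and of -0.003 with them removed, so the 2 levels showed no linear relation within groups. These are descriptions over libraries that share a scaling, 36 pairs were looked at, and sex and other-tissue RNA differ among the same libraries.

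The ratio of Pdk4 to Pdp2 per kilobase was 5.95 ± 1.60 in vehicle (SD, n = 5), 4.60 ± 1.41 in T4 (SD, n = 8) and 4.01 ± 0.47 in T3 livers (SD, n = 6), against 2.49 ± 1.42 in control (SD, n = 5) and 2.61 ± 1.65 in T3+T4 livers (SD, n = 7).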
